A study of Mus musculus with 6 samples.

Results

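The genes described here encode peroxiredoxins, thioredoxin, thioredoxin reductase, a glutathione peroxidase and a superoxide dismutase. They were chosen by name, as 10 symbols looked up in the deposited table: Prdx1, Prdx2, Prdx3, Prdx4, Prdx5, Prdx6, Txn1, Txnrd1, Gpx4 and Sod1. Of these, 9 had a row among the 18312 gene rows, and Prdx3 was not analysed here. The study looked for the mRNAs bound by Brf1 (gene Zfp36l1) and Brf2 (gene Zfp36l2), zinc finger proteins that bind AU-rich elements and promote mRNA decay. Its labels list 6 libraries in 3 groups of 2, all from E14 mESCs, a mouse embryonic stem cell line of wt genotype on the 129/Ola background, kept in medium with 15% FBS and LIF at 1000 U/ml. The groups were total RNA with no antibody, RNA recovered with an anti-Brf1/2 antibody, and RNA recovered with rabbit IgG as the control. The labels describe cytoplasmic extracts, and no knockout or treatment group.

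The single table analysed holds 22625281 counts, and 0 of its columns name a library or a group. It was therefore assigned to no group, it has no replicates, and enrichment by the antibody was not computed for any of these genes. Levels are given in FPKM, counts scaled to the effective length of the gene model in kilobases and to the total count. Ranges in parentheses are the authors' bounds, which for these 9 genes lie 2 square roots of the count to either side and cover counting error only. Whether a level reflects cellular RNA or precipitated RNA cannot be told apart. Of 6 pluripotent cell markers all had at least 1 FPKM, from 40.6 for Esrrb to 605 for Pou5f1. Only Thy1, at 3.74 FPKM, passed that level among 6 fibroblast markers (2 did on the model length), and Col3a1 was lowest at 0.0862. Among 5 primitive endoderm markers 3 passed it, from 0.0562 for Sox17 to 73.2 for Sparc. Among 6 red blood cell markers 3 passed it, and over all gene rows 56.0% did. Hbb-b1 had 73.0 FPKM, Hba-a1, named after its value was seen, had 71.8, and Hbb-bh1 had 0 counts, which allows up to 0.300 FPKM.

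Peroxiredoxins reduce hydrogen peroxide and organic peroxides with a reactive cysteine. Most are recycled by thioredoxin, which thioredoxin reductase in turn reduces with electrons from NADPH. Superoxide dismutase produces the hydrogen peroxide that these enzymes remove, and glutathione peroxidases do similar work with glutathione as the donor. The transcription factor Nrf2 (gene Nfe2l2), held back by Keap1, drives many of these genes through antioxidant response elements in their promoters.

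Txnrd1 and Gpx4 are selenoproteins, in which a TGA codon is read as selenocysteine and not as a stop. Their coding stretches are shown because this codon lies at the catalytic site of both enzymes. The TGA annotated as selenocysteine by GENCODE M21 is in capitals, and the bases to either side are in frame.
Gpx4 codon 73 of 197: aacgtggcctcgcaaTGAggcaaaactgac
Txnrd1 codon 612 of 613: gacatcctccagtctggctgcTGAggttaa
In Txnrd1 a single codon separates the TGA from the stop codon taa, at the end of the stretch. In Gpx4 the codon lies in the first part of the reading frame.

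The AU-rich motif TATTTAT, the core that ZFP36 family proteins bind, was searched in the longest annotated 3′ untranslated region of each gene. Txnrd1 was the only 1 of the 9 genes that held it, against 29.2% of 17541 genes in the table with such a region. Its 2 matches overlap in 1 run of 11 bases, shown here in capitals because it is the only TATTTAT match among these genes.
Txnrd1, bases 1412 to 1422 of a 1667-base region: gttcagtttTATTTATTTATtttttaagtt
The run also holds the longer motif TTATTTATT in 2 overlapping matches when its flanking bases are counted. The run was present in 3 of 4 coding Txnrd1 transcripts with an annotated region, those of 3325 to 3622 bases, and absent from the transcript of 2297 bases. The table's Txnrd1 model has 3634 bases. Sod1 and Prdx4 have short regions of 72 and 60 bases, while those of Prdx1 and Prdx6 have 1566 and 1609 bases and no match. Those of Gpx4, Prdx5, Txn1 and Prdx2 have 221, 250, 532 and 749 bases. The median longest region over annotated genes has 989 bases, and the comparison with 29.2% was not adjusted for length. The region of Prdx1 is longer than the whole Prdx1 model in the table, 1417 bases, so it was not matched to that model. The region of Prdx2 comes from a transcript of 1500 bases, where the Prdx2 model has 942, and was not matched to its model either. A match is a description of letters and does not show binding.

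The antioxidant response element core TGACNNNGC was searched on both strands in RefSeq promoter windows of 300 bases, 250 before and 50 from each annotated start (build GRCm38.p6, which is not the mm9 build of the table). Windows were matched for 8 of the 9 genes, all but Prdx6. Prdx1, Txnrd1 and Sod1 held the motif, 3 of 8, where 14.0% of all 27025 genes with a window did. By window it was 3 of 13, against 12.4% of all windows. The matches are in capitals, each on the strand opposite to the gene.
Prdx1, chr4:116685455-116685484, minus strand: ctacgggggaTGACTCAGCgctttccctgg
Txnrd1, chr10:82859103-82859132, minus strand: cgtgtcagaaTGACAAAGCaaaaatccagt
Sod1, chr16:90220695-90220724, minus strand: ggcctgagtcTGACCACGCccaccttggca
The base of each match farthest from the annotated start, its last as printed, lies 133, 92 and 56 bases before it in Prdx1, Txnrd1 and Sod1. The Prdx1 match overlaps TGACTCA, the motif of AP-1 factors, and the other pair do not hold it. The Txnrd1 match lies in 1 of its 3 windows. No match says only that these letters are not in the window.

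All 9 genes had at least 1 FPKM, as did 56.0% of all gene rows. At least 100 FPKM was reached by 5 of 9 (Prdx1, Sod1, Txn1, Prdx2 and Gpx4), and by 3.06% of all gene rows. The median was 170 FPKM, against 1.94 over all gene rows, and on the model length 237 against 2.58. The lowest of the 9, Prdx5, was above 89.7% of gene rows. Together the 9 genes held 71752 counts, 0.317% of the total (Wilson 95% interval 0.315 to 0.319).

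**Figure D1:**
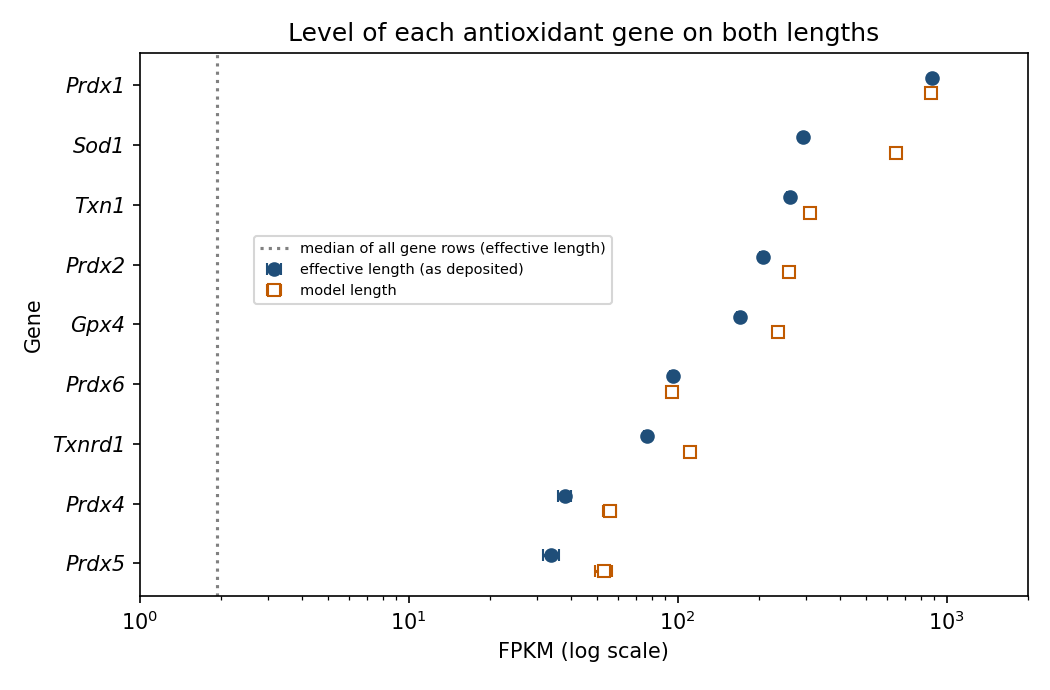
FPKM of the 9 genes (log scale), scaled by the effective length as deposited (filled circles) or by the model length (open squares); bars are the authors' bounds, rescaled for the squares, and the dotted line is the median of all gene rows. Sod1 moves from 293 to 647, and the order of Prdx6 and Txnrd1 turns.

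Prdx1, an abundant cytosolic peroxiredoxin, was the highest of the 9 genes at 881 FPKM (871 to 892, 28094 counts). It ranked 49th among all gene rows, and 90th on the model length. On either length it was the only 1 of the 9 among the top 100. Prdx2, its close cytosolic relative and a major protein of red blood cells, followed within the family at 208 FPKM (203 to 214, 5532 counts). The level of Prdx1 was 4.23 times that of Prdx2 (exact 95% interval for the counts 4.11 to 4.36). On the model length this ratio was 3.38 (3.28 to 3.48). Of the FPKM summed over the 5 measured peroxiredoxins, Prdx1 made up 70.1% and Prdx2 16.6% (65.4% and 19.4% on the model length). The red blood cell marker Hbb-b1, at 73.0 FPKM, was below Prdx2, and the part of such cells in the Prdx2 level was not tested.

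Prdx6, which has a single catalytic cysteine, uses glutathione and also has phospholipase activity, had 96.0 FPKM (93.3 to 98.8, 5016 counts). Its relative Prdx6b had 3.34 FPKM from 171 counts, so that Prdx6 was 28.8 times higher (exact 95% interval 24.7 to 33.7). On the model length this ratio was 36.3. The lowest of the family were Prdx4 and Prdx5. Prdx4, the peroxiredoxin of the endoplasmic reticulum, had 38.0 FPKM (35.8 to 40.2, 1235 counts). Prdx5, found in mitochondria and peroxisomes as well as the cytosol, had 33.8 FPKM (31.4 to 36.1, 826 counts). Their bounds overlap, and these 2 were the only neighbours in the order of the 9 genes whose bounds did. The exact interval of their ratio, 1.12 (1.03 to 1.23), lies just above 1, and on the model length it includes 1 (ratio 1.06, 0.965 to 1.15). Prdx1 and Prdx5, the ends of the family, differed by 26.1 times (16.5 on the model length).

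Txn1, the cytosolic thioredoxin that passes electrons to the peroxiredoxins, had 261 FPKM (255 to 267, 7396 counts). Its mitochondrial counterpart Txn2 had 49.9 FPKM, and Txn1 was 5.23 times higher (exact 95% interval 4.97 to 5.51), or 4.88 on the model length. Txnip, which binds and inhibits thioredoxin, had 43.3 FPKM. Txnrd1, the cytosolic reductase that recycles Txn1, had 76.6 FPKM (75.0 to 78.2) from 9135 counts. Its count exceeded that of Txn1, while its level per length was lower, with Txn1 at 3.41 times Txnrd1 (exact 95% interval 3.31 to 3.52). On the model length this ratio was 2.80 (2.71 to 2.89). The other reductases were far lower. Mitochondrial Txnrd2 had 2.53 FPKM from 174 counts and Txnrd3 had 3.01 FPKM from 229. Txnrd1 was 30.3 times Txnrd2 (exact 95% interval 26.1 to 35.4) and 25.4 times Txnrd3 (22.3 to 29.1). On the model length these ratios were 27.5 and 27.4. Srxn1, the sulfiredoxin that repairs overoxidised peroxiredoxins, had 10.2 FPKM, and Prdx1 was 86.1 times higher (70.1 on the model length).

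**Figure D2:**
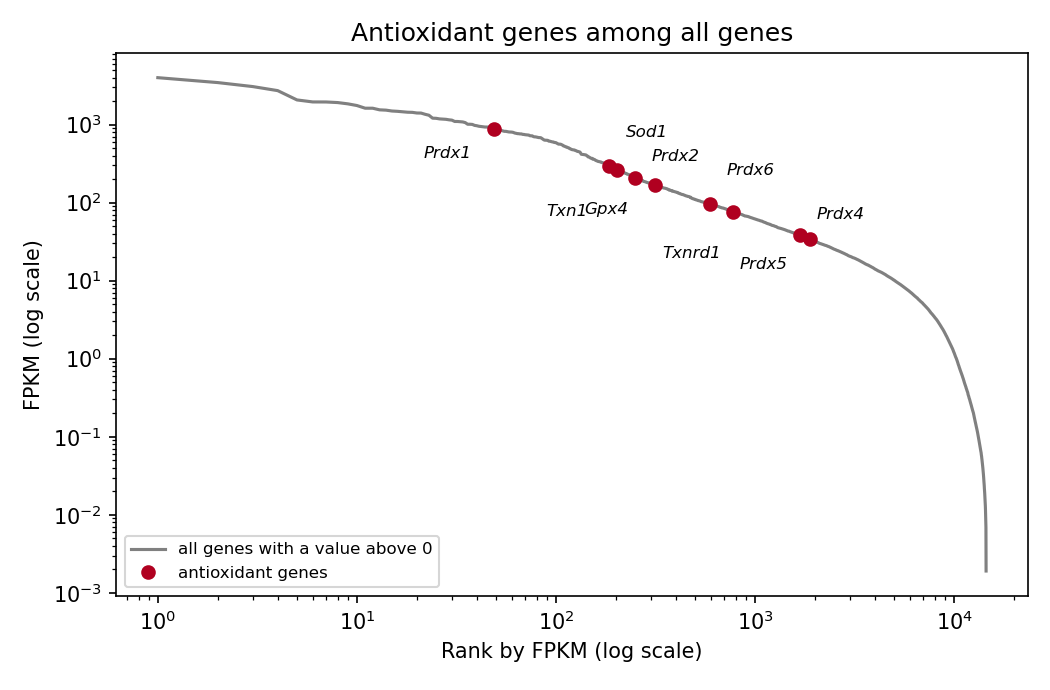
FPKM against rank for every gene row above 0 (grey line), with the 9 antioxidant genes as red points; both axes are log scales. Prdx1 lies at rank 49 and Prdx5, the lowest, at rank 1886.

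Gpx4, the glutathione peroxidase that reduces lipid hydroperoxides in membranes and protects against ferroptosis, had 170 FPKM (166 to 175, 5025 counts). It was the highest of the glutathione peroxidases, at 2.03 times Gpx1 (exact 95% interval 1.94 to 2.12). On the model length this ratio was 1.51 (1.45 to 1.58). Gpx1, a relative that also carries selenocysteine, had 84.1 FPKM. Of 7 other glutathione peroxidases 5 had at least 1 FPKM, as did 56.0% of all gene rows. Their median was 2.89 (4.73 on the model length), and Gpx5 was lowest with 1 count (0.0241 FPKM). The level of Gpx4 rests on a sequence with near-identical copies. Of the stretches of 50 bases in the Gpx4 transcript nearest in length to the table's model, 68.9% also occur in an annotated transcript of another gene, in each case a processed pseudogene. The count is uncertain for that reason, since 0 rows differ between total and unique counts and how shared reads were handled is not given in the sources used here.

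Sod1, the cytosolic superoxide dismutase that uses copper and zinc, was the second highest gene at 293 FPKM (287 to 299, 9493 counts). It was 1.12 times Txn1 (exact 95% interval 1.09 to 1.16), and on the model length 2.08 times (2.02 to 2.15). Mitochondrial Sod2 had 36.3 FPKM, and the ratio of Sod1 to Sod2 was 8.06 on the effective length (7.72 to 8.42) but 20.9 on the model length (19.99 to 21.8). Extracellular Sod3 had 2 counts (0.0358 FPKM). Catalase (Cat), the peroxisomal enzyme that breaks down hydrogen peroxide, had 13.3 FPKM, and Sod1 was 22.1 times higher (31.0 on the model length). The copper chaperone of Sod1, Ccs, was not analysed here.

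Of the 9 levels, that of Sod1 moved most with the length used. Its model has 648 bases, while the table scales its count by an effective length of 1432 bases, a ratio of 2.21. Only 6 of 367 other genes with a model within 10% of that length had a ratio as high, and their median was 1.09. Over all gene rows the median ratio was 1.27, and 98.5% of genes had a lower ratio than Sod1. Prdx1 and Prdx6 were at the other end, with ratios of 0.995 and 0.989. The remaining 6 genes had ratios from 1.19 for Txn1 to 1.57 for Prdx5. On the model length Sod1 was at 647 FPKM, and the ratio of Prdx1 to Sod1 went from 3.01 to 1.35. Of the 36 pairs among the 9 genes 1 changed its order. Prdx6 was 1.25 times Txnrd1 on the effective length (exact 95% interval 1.21 to 1.30) and 0.855 times on the model length (0.826 to 0.885).

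**Figure D3:**
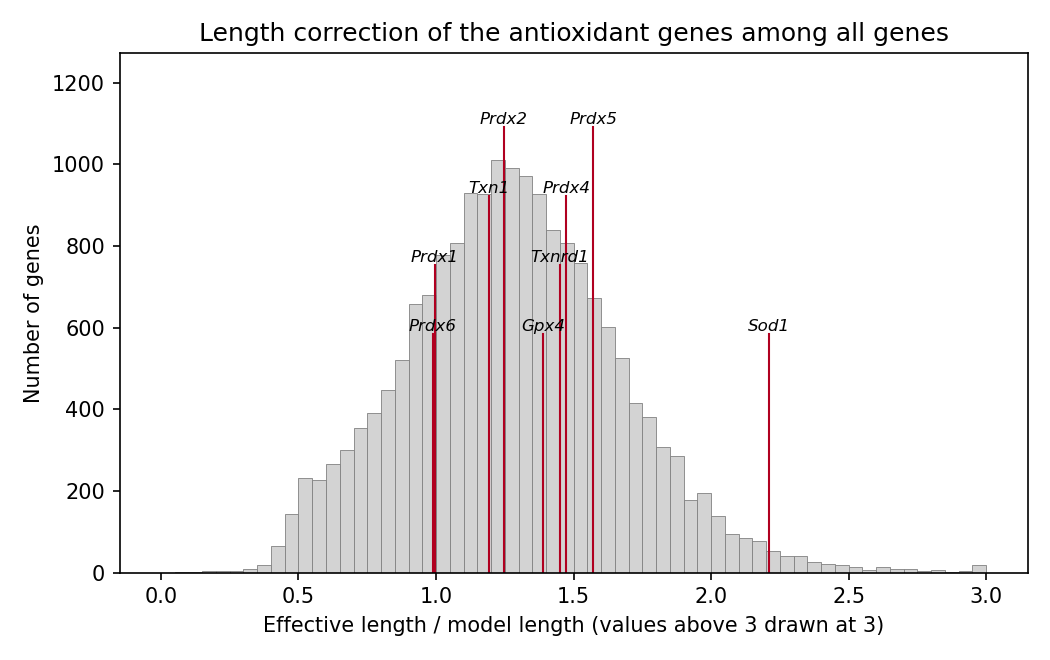
Number of genes by the ratio of effective to model length (grey bars, values above 3 drawn at 3), with the ratio of each of the 9 genes as a red line; line height has no meaning. Sod1, at 2.21, lies apart from the other 8, which run from 0.989 to 1.57.

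Copies and overlapping genes touch other members too. Shared stretches of 50 bases made up 29.5% for Prdx1, 23.7% for Prdx2, 23.1% for Sod1 and 2.50% for Txn1. Processed pseudogenes accounted for all of it in Prdx1, Sod1 and Txn1, and for 12.4% of the stretches in Prdx2. Shared stretches made up 0.299% for Prdx6, all in the protein-coding gene Prdx6b, and none were found for Prdx4, Prdx5 and Txnrd1. For Prdx1 the nearest complete transcript has 877 bases and for Prdx2 it has 1175, against models of 1417 and 942, so these shares may not be those of the models. Annotated Prdx2 exons overlap Junb by 173 bases and Rnaseh2a by 177 on the opposite strand. Junb and Rnaseh2a had 20.4 and 22.9 FPKM, from 1642 and 1432 counts, where Prdx2 had 5532 counts. How many reads fall in the overlaps was not tested. Prdx5 exons overlap Trmt112 on the opposite strand by 409 of 1447 bases. Strand use in counting is not given in the sources used here, so the reads of such pairs cannot be told apart.

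Around these genes, 8 related lists with 67 genes were examined, of which 59 had a row and 56 had at least 1 FPKM. Their median was 18.4 FPKM, and 5 of the 59 reached 100. Over all gene rows 56.0% had at least 1 FPKM and 3.06% at least 100. Among 10 measured thioredoxin and peroxiredoxin partners the median was 21.6, from Txnrd2 at 2.53 to Txndc17, a thioredoxin-like protein, at 51.2. On the model length the ends were Prdx6b at 2.62 and Txn2 at 63.7. The median over 9 measured genes of glutathione synthesis, reduction and glutaredoxins was 31.8 FPKM, and each had at least 1. Glrx3, a glutaredoxin that handles iron-sulfur clusters, was highest at 138, and Gss, glutathione synthetase, was lowest at 8.49, though on the model length Gss had 17.3 and the glutaredoxin Glrx2 was lowest at 7.93. Of the Nrf2 list all 9 measured genes had at least 1 FPKM (median 18.4, and 27.6 on the model length). The ferritin light chain Ftl1 had 1170 FPKM and was the only gene on these lists above Prdx1. Nfe2l2 had 28.8 FPKM and Keap1 2.78, a ratio of 10.4 (exact 95% interval 9.40 to 11.5) that was 6.17 on the model length.

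Txnrd1 and Gpx4 depend on the machinery that makes and inserts selenocysteine. The 6 listed synthesis factors had a median of 10.6 FPKM, and none was under 1, where 56.0% of all gene rows had at least 1. Sephs2, which makes the selenium donor, was highest at 61.8, and Eefsec, the elongation factor that delivers selenocysteine, was lowest at 4.50, though on the model length Eefsec had 7.72 and Sepsecs was lowest at 7.05. Of 12 other selenoproteins 9 were measured, all with at least 1 FPKM, against the same 56.0% of all gene rows. These 9 ran from Selenon at 1.70 to Selenoh at 109, so that Gpx4 was above each of them and Txnrd1 was below Selenoh. For 6 disulfide enzymes of the endoplasmic reticulum, the compartment of Prdx4, the median was 67.4 FPKM (122 on the model length). Pdia3 was highest at 139 and Ero1lb lowest at 1.60.

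**Figure D4:**
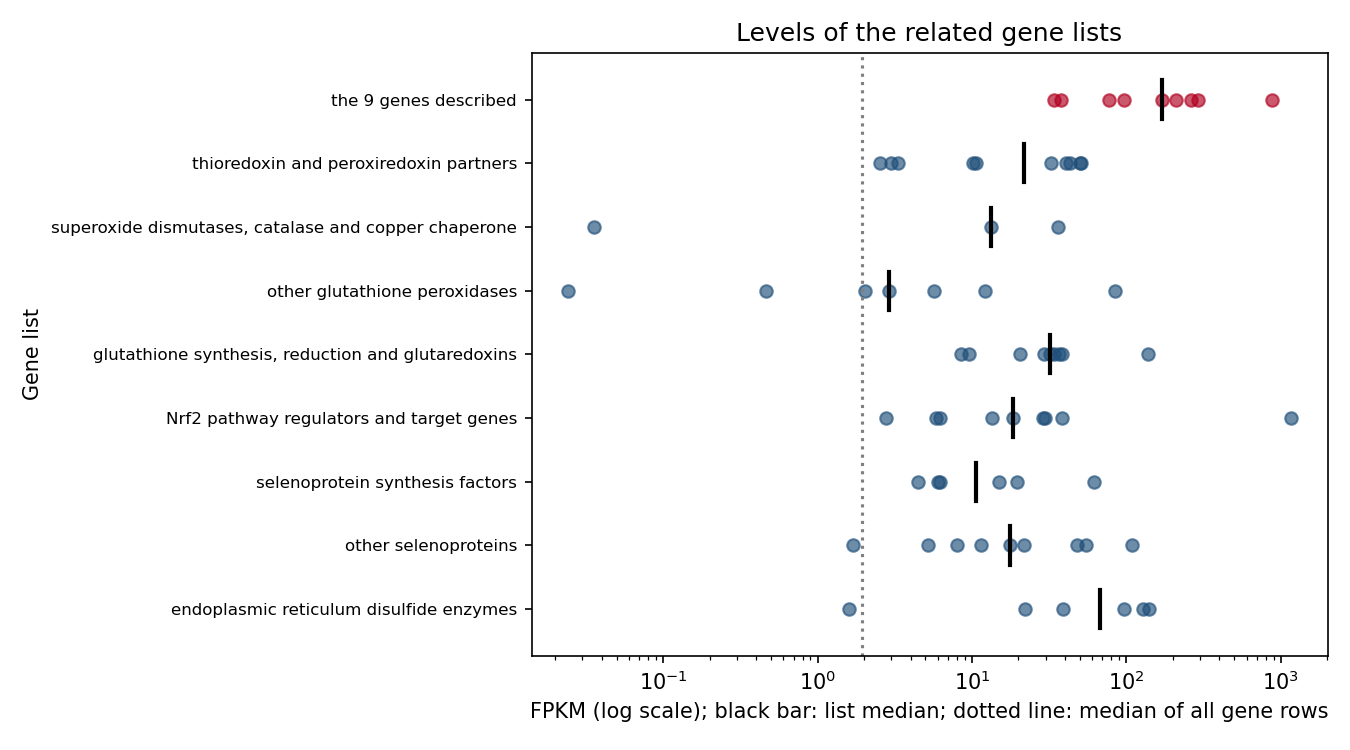
FPKM (log scale) of each measured gene in the 9 genes described and in 8 related lists; black bars are list medians and the dotted line is the median of all gene rows, 1.94. The 9 genes have the highest median, 170, and Ftl1 at 1170 is the single point above Prdx1.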

How the data were processed

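One table was deposited, laid out as eXpress writes it, per the file headers, and each gene symbol has 1 model. CASAVA 1.8.2, Bowtie 1.1.2, eXpress 1.1.1 and mm9 are named in the submitters' processing notes, and what each was used for is not given in the sources used here. Total and unique read counts were deposited as raw counts per gene, and estimated counts equal them in every row, per the file headers and values. FPKM and its bounds were computed by the authors from the effective length, per the file headers. The row that names no gene, which holds the column total of 22625281, was left out. With 1 unassigned profile no test between groups was run.

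From the table, FPKM on the model length, ranks, Wilson intervals of shares, and ratios with an exact 95% (Clopper-Pearson) interval of the counts were computed. Intervals and the limit of 3 counts for a count of 0 cover counting error only. Sequences came from GENCODE M21 transcripts (3′ untranslated regions of at least 50 bases) and the RefSeq promoter table. Interval and motif code was tested on simulated data. The members and lists were chosen with earlier results of these data known. Besides the 9 genes, the text names the highest and lowest gene of each list, genes with 0 counts and a fixed set of relatives and partners (Txn2, Txnrd2, Txnrd3, Srxn1, Txnip, Prdx6b, Gpx1, Sod2, Sod3, Cat, Ccs, Nfe2l2, Keap1). Alternatives were the model length, other thresholds, counts, scales, motifs and regions. The scripts ran with matplotlib 3.10.9, scipy 1.17.1, pandas 2.3.3 and numpy 2.4.6 under Python 3.11.15.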

Additional observations from a re-analysis of the deposited data

How the results depend on the processing

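No paired analysis was possible because no column is tied to a group or to a replicate number, and leaving out a library could not be done for the same reason. Scaled by the model length, 7 of the 9 genes were higher beyond the authors' bounds and 2 of 9 (Prdx1 and Prdx6) stayed within them, 35 of 36 pairs kept their order, and the median went from 170 to 237 FPKM. Expressed as TPM, which by construction rescales every gene by the same factor, the median was 475. The count of genes with at least 1 FPKM was 9 under every threshold tried (the lower bound, 5 FPKM, any count and 10 counts). The count with at least 100 FPKM was 5 with the lower bound and 6 with the model length, which added Txnrd1. Over all 18312 gene rows, 56.0% had at least 1 FPKM, 3.06% had at least 100, and 3844 rows had 0 counts. Shares of all gene rows at the other thresholds and on the model length are not given here. Without the 100 genes with the most counts, which include Prdx1, the remaining 8 genes held 0.241% of the remaining counts. TATTTAT was found in 0 of the 9 genes when the shortest region was used, where 19.8% of genes held it. The 560-base region of Txnrd1 ends before the run. In the longest region the shorter motif ATTTA was found in 4 (Prdx1, Txn1, Prdx6 and Txnrd1), where 67.5% of genes held it. TTATTTATT was found there in 1 of the 9, against 8.05% of genes. The looser promoter motif TGANNNNGC was found in 4 of 8 genes, against 45.0% of all genes.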
